A study of Equus asinus with 3 samples.

Results

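CLGN, RCN1, RCN2, PDIA6 and SEC61B, 5 genes of protein folding and entry in the endoplasmic reticulum, were described across germ cell stages and the secretory luminal cells of the epididymis. They were picked by name with earlier results of these data known, and all 5 were found among the 34267 features of the 3 libraries. The data are droplet-based single-cell transcriptomes of sexually mature male donkeys, with 1 library from testis, 1 from the caput (head) and 1 from the corpus (body) of the epididymis. No treatment, strain or genotype is given, and the sources do not say which animal gave which library. With 1 library per tissue no difference has a replicate check, and no p-value is reported.

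The endoplasmic reticulum is where secreted and membrane proteins enter the secretory route, acquire sugars and disulfide bonds, and are folded. CLGN (calmegin) is a calnexin-like chaperone of male germ cells, known in the mouse for the maturation of sperm surface proteins needed for fertilization. RCN1 and RCN2 (reticulocalbins) are calcium-binding proteins of the CREC family in the lumen of the compartment, PDIA6 is a protein disulfide isomerase that works with the chaperone HSPA5 (BiP), and SEC61B is the beta subunit of the SEC61 channel through which new proteins pass. Luminal epithelial cells of the epididymis secrete large amounts of small proteins such as beta-defensins and lipocalins into the duct.

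The libraries differed in depth, with a median of 4711 unique molecular identifiers (UMIs, counts of single transcript molecules) per kept cell in testis, 1145 in caput and 371 in corpus. Classes were built from clusters and marker genes, and "-like" marks a name that rests on markers. The testis library held 7417 germ-like cells (86.2%), divided into 1785 late spermatocyte-like, 2290 round spermatid-like, 183 elongating spermatid-like and 3159 germ-like cells whose stage stayed unnamed. The late spermatocyte-like name rests on 4 of 13 markers, the round spermatid-like name on 11 to 13 of 14 and the elongating spermatid-like name on 17 of 17. Caput held 2008 luminal epithelial-like cells (21.2%), in 4 clusters with 10 to 12 of 19 luminal markers, and 258 germ-like cells (115 elongating spermatid-like, and 143 in a cluster of mixed stages). Corpus held 162 luminal epithelial-like cells in 1 cluster, with 13 of 19 markers. Clusters led by very long genes stayed unnamed and made up 7.89% of testis cells, 53.9% of caput cells and 55.8% of corpus cells. The testis cluster of this kind (679 cells) is not counted among the germ-like cells, although its germ marker level was high. Levels are UMIs per 1000000 UMIs of a class (CPM, from summed counts), with exact 95% Poisson intervals in parentheses. A ratio of CPM has an exact 95% binomial interval, and these intervals cover counting error only. A gene is called higher or lower where its ratio exceeded 2-fold over the full interval, with 50 or more UMIs on the higher side.

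The 5 genes did not follow 1 pattern. CLGN was 47.1-fold higher in the germ-like cells of testis than in the luminal epithelial-like cells of caput, RCN1, PDIA6 and RCN2 were 1513-fold, 27.1-fold and 3.19-fold lower, and SEC61B was called neither higher nor lower. By the same rule 30.4% of 15270 features tested were higher in the germ-like cells and 29.9% were lower. A call in this comparison was therefore common, and the counts of 1 gene higher and 3 lower are to be read against those shares. Germ-like and luminal cells came from different libraries here, so tissue, library and depth cannot be told apart from cell class. The same contrast within the caput library, where library is shared, is given beside each gene.

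**Figure D1:**
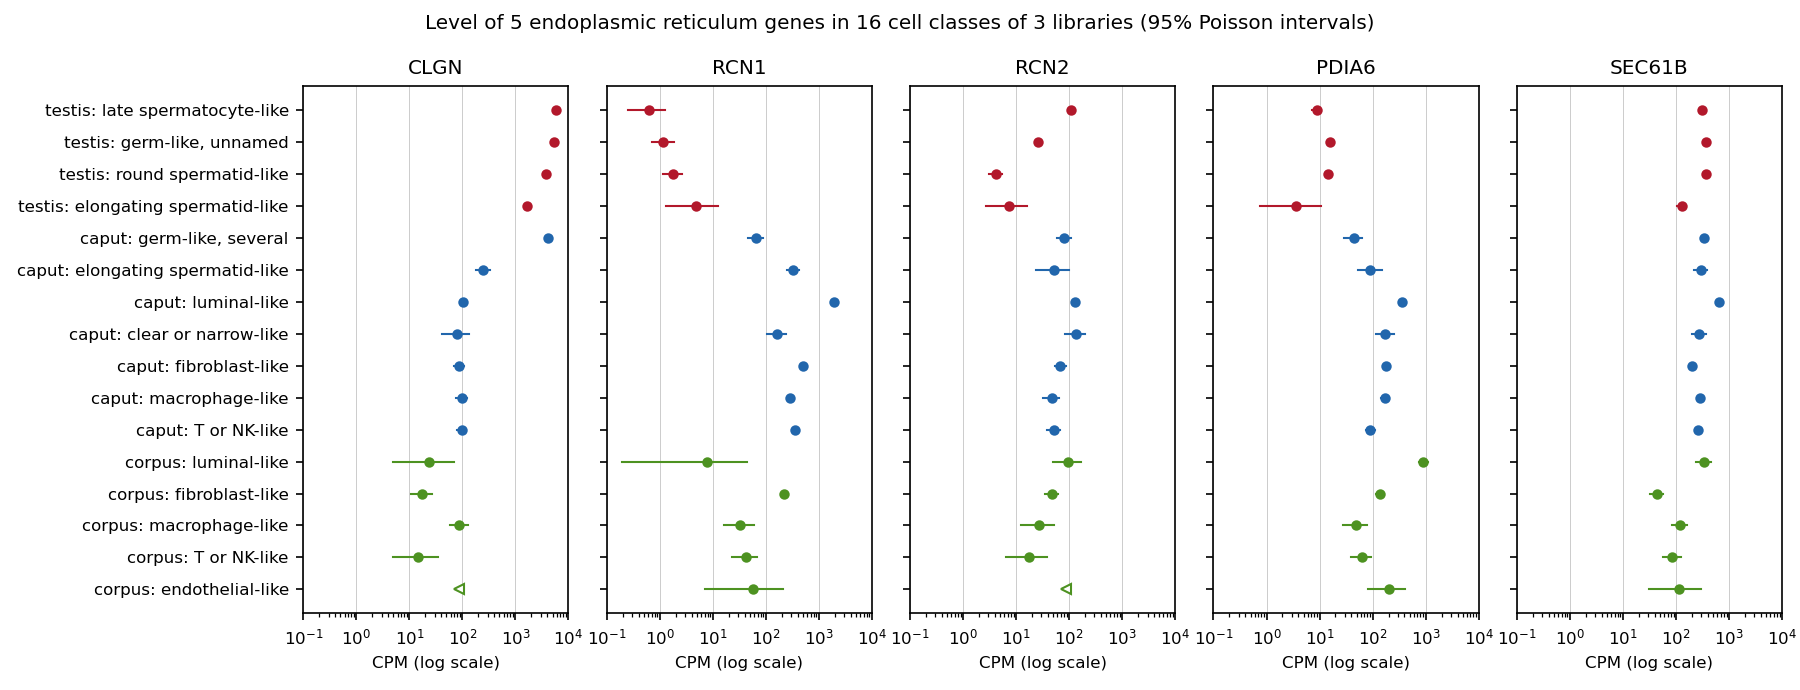
Level of CLGN, RCN1, RCN2, PDIA6 and SEC61B (CPM, log axis) in 16 named classes of testis (red), caput (blue) and corpus (green), with 95% Poisson intervals as lines. An open triangle marks the level that 3 UMIs would give in a class with 0 UMIs. CLGN lies at 1623 CPM or more in every germ class of testis, and RCN1 at 4.82 CPM or less in each of them.

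With the 16 classes ranked by level, neighbours differed beyond the interval of their ratio at 6 of 15 steps for CLGN, 4 each for RCN1 and SEC61B, 3 for PDIA6 and 1 for RCN2. Most neighbours in these orders were therefore not separated beyond counting error.

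CLGN, the germ cell chaperone, stood at 4872 CPM (4851 to 4893) in the germ-like cells of testis and at 103 CPM (92.0 to 116) in the luminal epithelial-like cells of caput. The ratio was 47.1 (42.0 to 53.0). At least 1 CLGN UMI was found in 99.8% of the germ-like cells, and in 96.1% once each cell was thinned to 800 UMIs. The thinned share in the luminal cells of caput was 7.47%, so CLGN was near universal in the germ-like cells at equal depth and was rare in the luminal cells.

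By stage the CLGN level was 5718 CPM in late spermatocyte-like cells, 5401 in germ-like cells of unnamed stage, 3749 in round spermatid-like cells and 1623 in elongating spermatid-like cells, with no overlap between the intervals of any of these 4 classes. The class of unnamed stage holds 1 cluster of 111 cells led by the elongating spermatid genes TNP2 and TNP1 (13 of 17 markers of that stage), which had 4684 CPM of CLGN (4531 to 4840). The round spermatid-like class pools testis clusters 1, 6 and 7, with 4235, 3532 and 2790 CPM of CLGN. Clusters 6 and 7 (659 and 416 cells) also passed the elongating spermatid marker list. The late spermatocyte-like cells were 3.52-fold (3.34 to 3.72) above the elongating spermatid-like cells, where 28.4% of 8816 features tested were higher in the former and 16.9% lower. A coarser clustering, with Leiden resolution 0.5, gave 2.23-fold, still a call. Outside the germ-like class, the 679 testis cells led by very long genes had 5548 CPM of CLGN. Germ markers together had 11160 CPM in them and 10409 CPM in the late spermatocyte-like cells.

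Within caput, CLGN stood at 4141 CPM (3981 to 4306) in the germ-like cells of several stages, 98.6% of which had a UMI. The 115 elongating spermatid-like cells of caput had 245 CPM (177 to 330.3), on 43 UMIs and 2.37-fold (1.68 to 3.27) the luminal level, not a call; in that comparison 4.3% of 5235 features were called higher and 3.97% lower. All germ-like cells of caput together were 31.6-fold (28.02 to 35.8) above the luminal cells of the same library, where 21% of 8238 features were called higher and 15.7% lower. With each cell given the same weight this ratio was 19.2, and without the elongating spermatid-like cells it was 40.0.

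The CLGN level of the luminal cells was not above that of caput cells without a known use of the gene. It was 97.1 CPM in T or NK-like cells, 97.6 in macrophage-like cells, 86.4 in fibroblast-like cells and 78.5 in clear or narrow-like cells, with overlapping intervals. The share of cells with a UMI was 11.1% in luminal cells (median 1192 UMIs per cell), 10.9% in T or NK-like cells (median 1187) and 12.8% in macrophage-like cells (median 1331). The luminal share was thus close to those of both immune classes, and the part of free RNA in these shares was not tested. In testis, the 30 T or NK-like cells had 847 CPM of CLGN, with a UMI in 83.3% of them. Testis clusters with somatic markers, left unnamed for their high germ marker levels, had more. The cluster of 173 cells with 11 of 12 fibroblast markers had 3779 CPM, and those of 283 and 22 cells had 4669 and 2843 CPM. These levels lay above the 1623 CPM of the elongating spermatid-like cells of testis. The part of free RNA or doublets in them was not tested.

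Corpus held no germ-like cluster, and CLGN was low there. Its level was 17.2 CPM in fibroblast-like cells, 14.8 in T or NK-like cells, 23.5 in luminal cells on 3 UMIs and 86.9 in macrophage-like cells on 29 UMIs, and 0 UMIs were found in the 74 endothelial-like cells, which allows up to 86.8 CPM (3 UMIs of the class total). CLGN was 5.01-fold (3.07 to 8.59) higher in the fibroblast-like cells of caput than in those of corpus and 6.55-fold (2.72 to 20.6) higher in the T or NK-like cells. The ratio of caput to corpus was 1.12 (0.722 to 1.79) in macrophage-like cells and 4.40 (1.49 to 21.5) in luminal cells, neither of them a call. Features called higher in caput were 2.02% of 5648 for fibroblast-like cells (0.443% lower) and 3.63% of 3306 for T or NK-like cells (1.81% lower). TNP1, a gene of elongating spermatids, had 20.7 and 22.0 CPM in the fibroblast-like and T or NK-like cells of caput and 0 UMIs in those of corpus. The 69 germ markers together had 1126 and 1061 CPM in these caput classes and 876 and 1017 CPM in the corpus classes. Their part in the CLGN values was not tested.

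RCN1, a calcium-binding reticulocalbin, had the reverse placement. It stood at 1969 CPM (1918 to 2021) in the luminal epithelial-like cells of caput, on 5654 UMIs, and at 1.30 CPM (0.981 to 1.69) in the germ-like cells of testis, on 55 UMIs. The level was 1513-fold (1160.4 to 2010.5) lower in the germ-like cells. It was 0.619 CPM in late spermatocyte-like cells (7 UMIs), 1.81 in round spermatid-like cells (25 UMIs) and 4.82 in elongating spermatid-like cells (4 UMIs), so RCN1 was close to absent from every named stage. After thinning to 800 UMIs per cell, 65.1% of the luminal cells and 0.121% of the germ-like cells had a UMI.

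Elsewhere in testis, RCN1 was found mainly in 1 cluster of 173 cells with 11 of 12 fibroblast markers and DCN and APOD among its leading genes, left unnamed because its germ marker level was high. That cluster had 119 CPM of RCN1 (94.6 to 147) on 83 UMIs, with a UMI in 32.9% of its cells. The 283 and 22 cells of the other clusters of mixed lineage had 1 RCN1 UMI each. Among caput classes the order after the luminal cells was fibroblast-like at 509 CPM, T or NK-like at 349, elongating spermatid-like at 331, macrophage-like at 288, clear or narrow-like at 163 and germ-like of several stages at 64.1. Luminal cells were 3.87-fold (3.54 to 4.23) above fibroblast-like cells, a call made for 7.62% of 7335 features in that direction. The T or NK-like and elongating spermatid-like cells did not differ beyond their intervals, with a ratio of 1.06 (0.799 to 1.42).

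RCN1 in the other caput classes was set beside DEFB119, a beta-defensin gene that leads the largest luminal cluster. Luminal cells had 13.1 RCN1 UMIs per 100 DEFB119 UMIs (12.8 to 13.5), T or NK-like cells 10.4 (9.30 to 11.5), macrophage-like cells 8.71 (7.54 to 10.01) and germ-like cells of several stages 7.07 (4.97 to 9.78). DEFB119 itself was at 22.5% of its luminal level in T or NK-like cells and at 22.0% in macrophage-like cells, where RCN1 was at 17.7% and 14.6%. Fibroblast-like cells had 19.0 RCN1 UMIs per 100 DEFB119 UMIs (17.3 to 20.8). The luminal value pools clusters that differed widely, with 8.20 (7.87 to 8.55), 41.7 (39.3 to 44.3), 10.6 (9.75 to 11.5) and 33.8 (31.4 to 36.4) RCN1 UMIs per 100 DEFB119 UMIs in clusters 1, 6, 7 and 8. The fibroblast-like value lay inside that range, and those of T or NK-like and macrophage-like cells lay between clusters 1 and 7. Germ-like cells of several stages, at 7.07, and clear or narrow-like cells, at 6.82 (4.44 to 10.1), lay below cluster 1 with overlapping intervals. Against the pooled luminal value, fibroblast-like cells lay above, and T or NK-like, macrophage-like and germ-like cells of several stages below, without overlap. Because the luminal clusters span so wide a range, this measure cannot decide whether a class differed from the luminal cells.

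**Figure D2:**
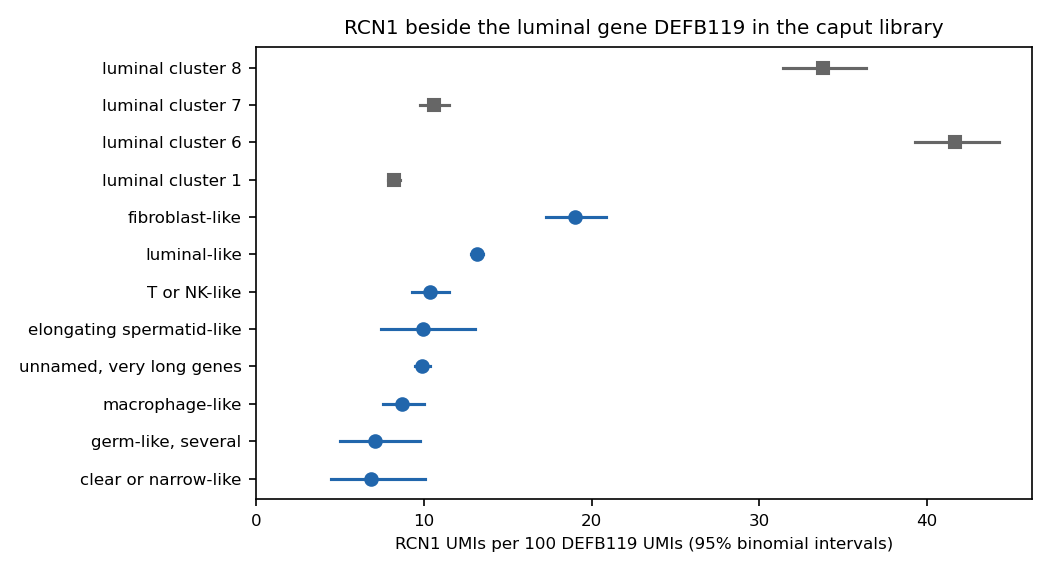
RCN1 UMIs per 100 UMIs of the luminal gene DEFB119 in 8 classes (blue circles) and the 4 luminal clusters (grey squares) of the caput library, with 95% binomial intervals as lines. The fibroblast-like cells, at 19.0, lie above the pooled luminal value of 13.1 and below luminal clusters 6 and 8, at 41.7 and 33.8.

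The germ-like cells of caput had RCN1 at 124 CPM, 15.9-fold (13.0 to 19.7) below the luminal cells of that library. This ratio was 7.97 with each cell given the same weight and 30.7 without the elongating spermatid-like cells. A UMI of RCN1 was found in 23.6% of these germ-like cells (median 1496 UMIs per cell), in 24.1% of T or NK-like cells and in 24.0% of macrophage-like cells. The share in the germ-like cells of caput was thus close to those of both immune classes, and the part of free RNA in these shares was not tested.

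In corpus RCN1 was highest in fibroblast-like cells, at 216 CPM (190.3 to 245) on 251 UMIs, in a class with 3 UMIs of DEFB119. Endothelial-like cells had 57.9 CPM on 2 UMIs, T or NK-like cells 41.5 and macrophage-like cells 32.9. The luminal cells of corpus had 1 UMI of RCN1, or 7.83 CPM (0.198 to 43.6), and 0 UMIs of DEFB119. RCN1 was 27.6-fold (4.91 to 1095) lower in luminal than in fibroblast-like cells of corpus, where 8.2% of 3986 features were called lower and 3.49% higher, against 3.87-fold higher in caput.

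Between the regions, RCN1 in luminal cells was 251-fold (45.1 to 9933) higher in caput than in corpus, the only member called in that direction. Features called higher in caput were 2.54% of 5072, and features called lower were 1.36%. In corpus the class was 1 cluster of 162 cells with a median of 662 UMIs, and the lower bound of the ratio is the firmer figure. RCN1 was also higher in caput in macrophage-like cells, by 8.73-fold (4.78 to 17.7), where 4.91% of 2344 features were called higher and 2.13% lower. The difference was 8.40-fold (4.95 to 15.5) for T or NK-like cells and 2.35-fold (2.02 to 2.74) for fibroblast-like cells.

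RCN2, the other reticulocalbin, was the member that varied most along the germ stages. It stood at 111 CPM (104 to 117) in late spermatocyte-like cells, 25.9 in germ-like cells of unnamed stage, 4.13 in round spermatid-like cells and 7.23 (2.65 to 15.7, 6 UMIs) in elongating spermatid-like cells. A UMI was found in 45.2% of late spermatocyte-like cells and in 2.36% of round spermatid-like cells. The late spermatocyte-like cells were 26.8-fold (20.5 to 35.5) above the round spermatid-like cells, where 14.5% of 14126 features were called higher and 34.4% lower, and 15.3-fold (7.0 to 41.7) above the elongating spermatid-like cells.

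Because of this fall, the comparison of RCN2 with luminal cells depended on the stage. The luminal cells of caput had 131 CPM (118 to 145). Late spermatocyte-like cells, at 0.844 of that level (0.752 to 0.95), were not called different, while round spermatid-like cells were 31.7-fold (23.9 to 42.7) and elongating spermatid-like cells 18.1-fold (8.24 to 49.7) lower. Features called lower than in luminal cells were 40.4% of 12034 for late spermatocyte-like, 32.3% of 14265 for round spermatid-like and 43.8% of 9376 for elongating spermatid-like cells, and features called higher 27.8%, 34.3% and 21.5%. Over all germ-like cells of testis RCN2 had 41.1 CPM (39.2 to 43.1) and was 3.19-fold (2.84 to 3.56) lower.

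In the somatic classes RCN2 varied less. Caput clear or narrow-like cells had 133 CPM, fibroblast-like cells 68.6, T or NK-like cells 51.3 and macrophage-like cells 46.8, and the clear or narrow-like and luminal cells did not differ beyond their intervals. Germ-like cells of several stages in caput had 80.5 CPM (59.6 to 106), and all germ-like cells of caput stood at 0.565 (0.421 to 0.747) of the luminal level, not a call. Corpus had 93.99 CPM in luminal cells (12 UMIs), 17.8 in T or NK-like, 47.4 in fibroblast-like and 27.0 in macrophage-like cells, and 0 UMIs in endothelial-like cells, which allows up to 86.8 CPM. Caput and corpus luminal cells gave a ratio of 1.39 (0.788 to 2.72), so no difference was detectable at this depth.

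PDIA6, the disulfide isomerase, was highest in luminal cells of both regions. It had 909 CPM (751 to 1090) in the luminal cells of corpus, on 116 UMIs, and 358 CPM (337 to 381) in those of caput, on 1029 UMIs. The caput level was 2.53-fold (2.07 to 3.07) below that of corpus, in the direction called for 1.36% of features, and PDIA6 was 1 of 3 called genes among the 43 genes of the reticulum lists with enough UMIs. FKBP2, a prolyl isomerase, was also lower in caput (2.44-fold, 2.09 to 2.84), and RCN1 was the gene called higher.

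Germ-like cells of testis had 13.2 CPM of PDIA6 (12.2 to 14.4), 27.1-fold (24.4 to 30.1) below the luminal cells of caput and 68.7-fold (55.7 to 84.0) below those of corpus, where 2.13% of 10233 features were called lower and 14.8% higher. By stage the level was 8.84 CPM in late spermatocyte-like cells, 15.5 in cells of unnamed stage, 14.7 in round spermatid-like cells and 3.61 (3 UMIs) in elongating spermatid-like cells. Within caput the germ-like cells had 54.9 CPM, 6.53-fold (4.82 to 9.08) below the luminal cells, or 4.13-fold with each cell given the same weight. After thinning, 4.65% of those germ-like cells and 7.02% of T or NK-like cells had a UMI.

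Among somatic classes of caput, PDIA6 had 90.7 CPM in T or NK-like, 173 in macrophage-like, 175 in clear or narrow-like and 180.3 in fibroblast-like cells. Luminal cells were 1.99-fold (1.70 to 2.33) above the fibroblast-like cells, not a call. In corpus, endothelial-like cells had 203 CPM on 7 UMIs, fibroblast-like 139, T or NK-like 62.3 and macrophage-like 47.9. There the luminal cells were 6.55-fold (5.11 to 8.37) above the fibroblast-like cells.

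SEC61B, the channel subunit, was the least uneven of the 5. Its level was 346 CPM (340.3 to 352) in the germ-like cells of testis and 658 CPM (629 to 688) in the luminal cells of caput. The ratio was 0.526 (0.501 to 0.552), with the whole interval inside 2-fold, and so was not a call. It became a call, at 0.464, when the 50 features with the most UMIs were left out of the totals. By stage, late spermatocyte-like cells of testis were at 0.464 (0.438 to 0.491) of the luminal level, called lower. Elongating spermatid-like cells were at 0.198 (0.161 to 0.240), also called lower, and round spermatid-like cells at 0.561 (0.532 to 0.591), not a call. Features called lower were 40.4%, 43.8% and 32.3% in these comparisons, and features called higher 27.8%, 21.5% and 34.3%. The caput germ-like cells had 332 CPM and a ratio of 0.504 (0.441 to 0.574) to the luminal cells, or 0.427 with the same features left out, then a call.

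The share of cells with a SEC61B UMI was larger in germ-like cells of testis, at 76.3%, than in luminal cells of caput, at 56.4%, which goes against the CPM. Thinned to 800 UMIs per cell the shares were 23.7% and 40.6%, in the order of the CPM. By stage SEC61B had 305 CPM in late spermatocyte-like, 366 in unnamed, 369 in round spermatid-like and 130.1 (107 to 157) in elongating spermatid-like cells, so the elongating class was lowest and the late spermatocyte-like class lay between it and the other two. Round spermatid-like cells were 2.84-fold (2.34 to 3.46) above elongating spermatid-like cells, where 11.6% of 10873 features were called higher and 7.21% lower. CLGN was called too, at 2.31-fold (2.19 to 2.44).

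In caput SEC61B had 342 CPM in germ-like cells of several stages, 297 in elongating spermatid-like, 288 in macrophage-like, 278 in clear or narrow-like, 256 in T or NK-like and 200.03 in fibroblast-like cells. Luminal cells were 3.29-fold (2.85 to 3.81) above fibroblast-like cells. Corpus luminal cells had 337 CPM (244 to 454) on 43 UMIs, macrophage-like cells 117, endothelial-like cells 116, T or NK-like cells 86.0 and fibroblast-like cells 43.9. The luminal ratio of caput to corpus was 1.95 (1.44 to 2.71), not a call. Fibroblast-like cells were 4.55-fold (3.34 to 6.31) and T or NK-like cells 2.98-fold (2.03 to 4.53) higher in caput.

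The course along the germ stages was followed in 10 groups of equal size, into which the testis germ-like cells were ordered by the share of spermatid markers among their stage-marker UMIs. CLGN went from 5687 CPM in the first group to 2726 in the last, a ratio of 2.09 (2.04 to 2.13), and was lower than in the group before at 8 of 9 steps. RCN2 went from 101 to 4.02 CPM, a ratio of 25.1 (15.3 to 44.2), also lower at 8 of 9 steps. The drop of RCN2 lay early in this order, from 82.4 CPM in the third group to 14.9 in the sixth, whereas CLGN was still at 5189 CPM in the sixth.

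PDIA6 took another course, from 6.31 CPM in the first group through 20.1 in the seventh to 10.1 in the last. SEC61B began at 297 CPM, reached 379.7 in the seventh group and ended at 299, with a ratio of the ends of 0.994 (0.919 to 1.08). RCN1 stayed between 0.228 and 2.52 CPM. The ordering is of cells within 1 library and shares its depth and its markers with the stage names, so it is a second view of the same cells.

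**Figure D3:**
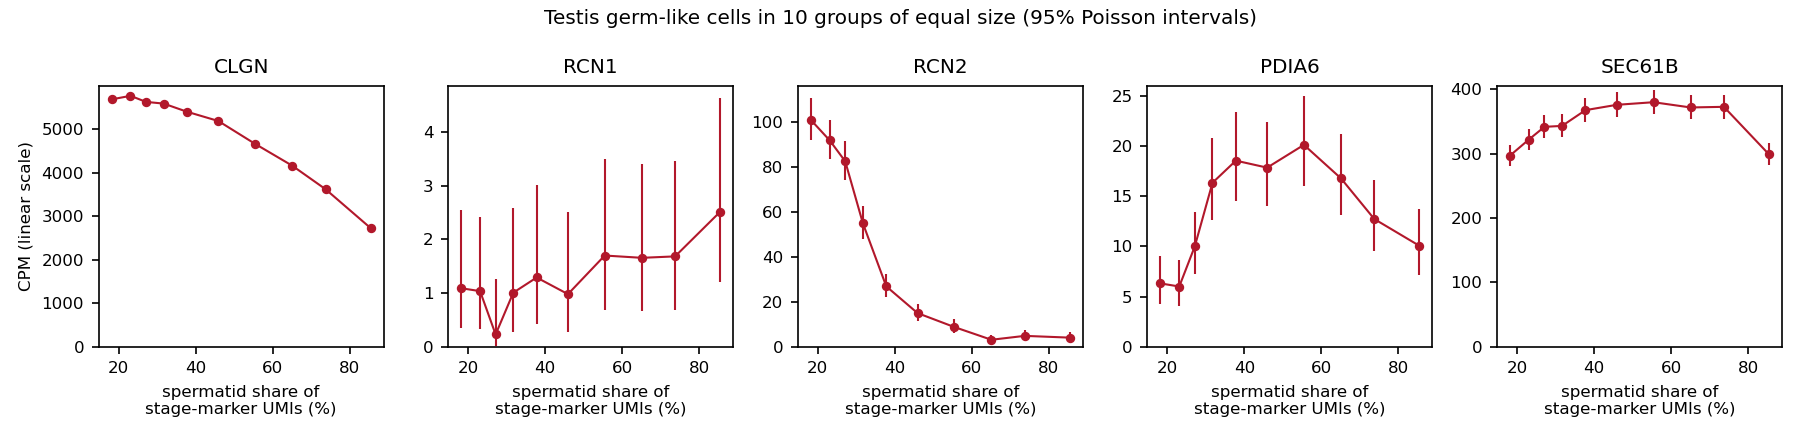
Level of the 5 genes (CPM, linear axes that differ between panels) in 10 groups of testis germ-like cells, against the median spermatid share of stage-marker UMIs (percent), with 95% Poisson intervals. RCN2 is near 100 CPM at the left and near 4 CPM at the right, CLGN falls late and PDIA6 is highest in the middle.

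The luminal cells of caput fell into 4 clusters with partly different leading genes, and the 5 genes did not follow each other across them. Leading genes were DEFB119, EDDM13 and DEFB118 in cluster 1 (916 cells) and DEFB129 and DEFB135 in cluster 6 (439 cells). They were DEFB127, LCN6 and PTGDS in cluster 7 (402 cells) and CST11 and LCN8 in cluster 8 (251 cells), LCN6 and LCN8 being lipocalin genes. The genes named for cluster 7 were higher still in cluster 8. DEFB127 had 1030 CPM in cluster 7 and 2662 in cluster 8, LCN6 4981 and 12614, and PTGDS 3987 and 9767. EDDM13, named for cluster 1, had 7526, 6954, 5700 and 2741 CPM in clusters 1, 6, 7 and 8. RCN1 had 2025, 2336, 1146 and 2369 CPM in clusters 1, 6, 7 and 8, and cluster 7 stood below the others. The highest was 2.07-fold (1.87 to 2.28) above the lowest, though RCN1 is itself among the 10 leading genes of cluster 1.

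PDIA6 had 309, 501, 299 and 362 CPM in the same clusters and was highest in cluster 6, 1.68-fold (1.39 to 2.03) above cluster 7. SEC61B had 730, 689, 585 and 498 CPM, and cluster 1 was 1.47-fold (1.26 to 1.71) above cluster 8. RCN2 had 113, 146, 168 and 109 CPM, and the highest was 1.55-fold (1.08 to 2.26) above the lowest. CLGN, between 89.4 and 115 CPM, did not differ across the clusters beyond its intervals (1.28-fold, 0.845 to 1.97). The cells of these clusters share 1 library, so the differences describe these cells.

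**Figure D4:**
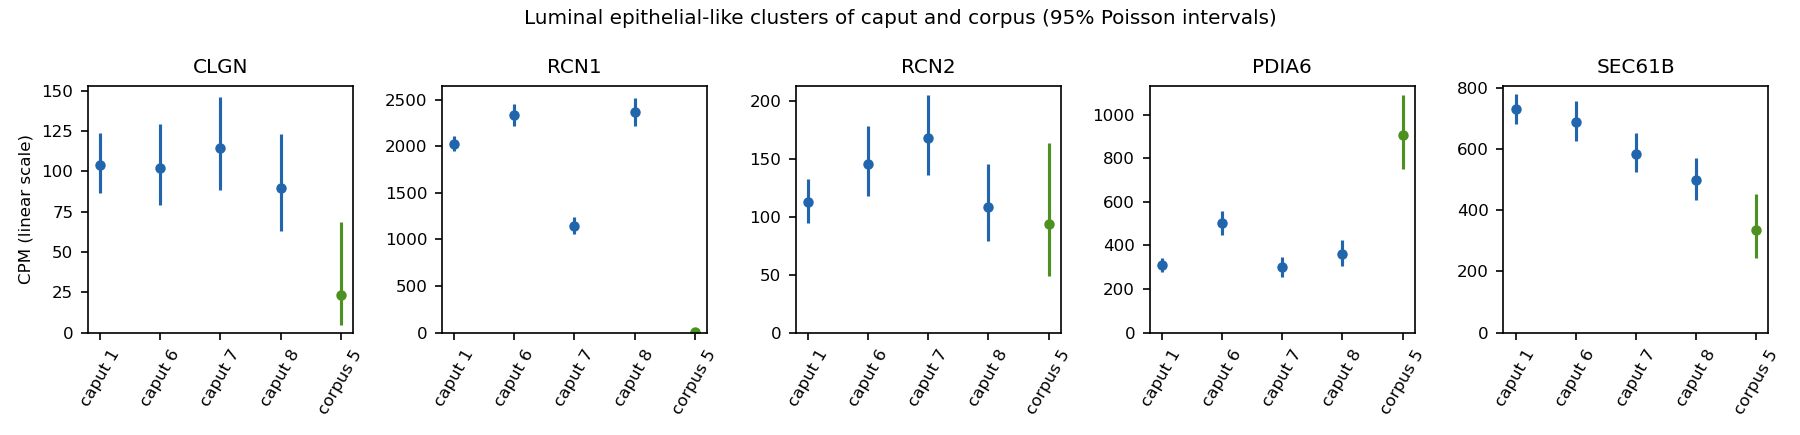
Level of the 5 genes (CPM, linear axes that differ between panels) in the 4 luminal epithelial-like clusters of caput (blue, clusters 1, 6, 7 and 8) and the 1 of corpus (green, cluster 5), with 95% Poisson intervals. RCN1 is high in all 4 caput clusters and at 7.83 CPM in corpus, and PDIA6 is highest in corpus.

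Other genes of the compartment were counted from lists of 111 genes in 9 roles, 108 of which were among the features. Of 100 with enough UMIs, 14 were higher and 42 lower in germ-like cells of testis than in luminal cells of caput, beside 30.4% and 29.9% of all features, and 44 were neither. The median log2 ratio of the list was -0.60, against 0.55 over all features tested. Within caput, 9 of 91 were higher and 30 lower, beside 21% and 15.7%, with a median of -0.80 against -0.47. Without the elongating spermatid-like cells of caput the counts were 12 and 31 of 90, beside 20.1% and 21.1% of 8007 features.

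Among lectin chaperones and glucosidases 2 of 9 were higher in the germ-like cells of testis and 4 were lower, beside 30.4% and 29.9% of all features. CALR3, a calreticulin relative of the testis, had 354 CPM in germ-like cells of testis and 16.7 in luminal cells of caput and was 21.2-fold (15.96 to 28.7) higher. The widely expressed chaperones ran the other way: CANX (calnexin) was 12.9-fold (11.98 to 14.0) lower, with 33.6 against 435 CPM, and CALR (calreticulin) 3.98-fold (3.69 to 4.29) lower. CLGN and CANX, and CALR3 and CALR, are pairs of related genes with opposite calls, and the same 4 calls were made within caput, at 31.6-fold and 14.1-fold higher and 4.43-fold and 3.36-fold lower.

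The KDEL receptors, which return escaped residents to the compartment, were also divided. KDELR2 was 12.7-fold (11.5 to 14.0) higher in the germ-like cells of testis, and KDELR1 23.7-fold (16.9 to 33.4) lower. Of 12 genes of the oligosaccharyltransferase, which attaches sugars, 2 were higher and 3 lower, beside 30.4% and 29.9% of all features. In this complex TUSC3 was 2.78-fold (2.44 to 3.18) higher and its relative MAGT1 232-fold (160 to 351) lower. These pairs were singled out after their values were seen. All 4 calls were made within caput as well, at 11.7-fold and 3.01-fold higher for KDELR2 and TUSC3 and 6.48-fold and 11.4-fold lower for KDELR1 and MAGT1.

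PDIA6 was among 7 of 16 disulfide isomerases and oxidases that were lower in germ-like cells of testis. Of all features tested in this comparison, 30.4% were higher and 29.9% lower. ERP29 was 78.8-fold and PDIA5 28.3-fold lower, whereas QSOX1, an oxidase, was 4.69-fold and TMX2, a membrane thioredoxin-like protein, 4.17-fold higher. RCN1 and RCN2 were among 3 of 4 CREC genes that were lower, with CALU (calumenin) at 6.45-fold. Of 6 prolyl isomerases 3 were lower, PPIB by 83.1-fold and FKBP2 by 45.7-fold, and FKBP7 was 3.16-fold higher.

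SEC61B belonged to 10 of 24 genes of the translocon, signal recognition and signal peptidase that were called neither way, while 5 were higher and 9 lower. The counts here are to be read beside the 30.4% of all features called higher and the 29.9% called lower. TRAM1 was 4.96-fold, SPCS1 3.47-fold and SEC61A2, an alpha subunit of the channel, 3.20-fold higher. SEC11C was 43.8-fold, SSR4 30.1-fold and SSR2 9.07-fold lower. In the HSP70 and HSP90 system 9 of 13 were neither, DNAJC1 was 9.42-fold higher, and SDF2, DNAJC10 and DNAJC3 were lower. None of 14 genes of stress response and degradation was higher and 9 were lower, among them the stress sensors EIF2AK3 and ERN1 and the ubiquitin ligase SYVN1.

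**Figure D5:**
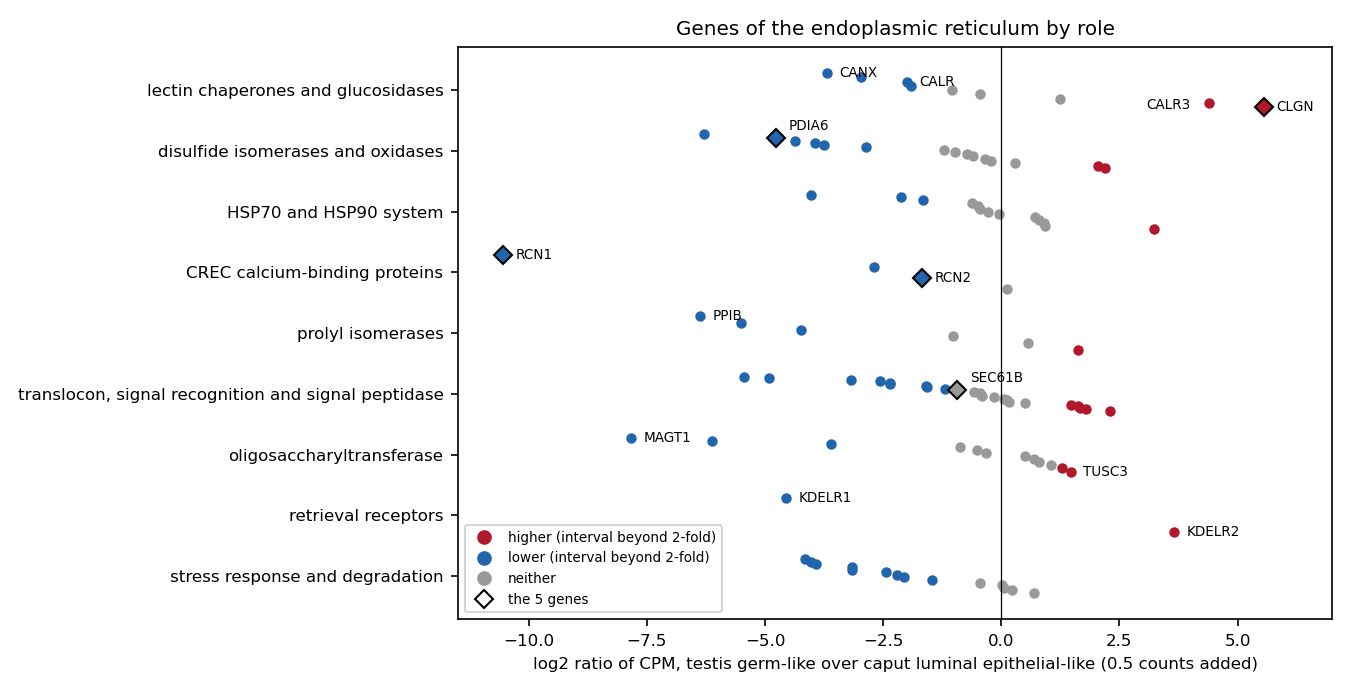
Log2 ratio of CPM between germ-like cells of testis and luminal epithelial-like cells of caput for 100 reticulum genes in 9 roles, with 0.5 counts added to each side. Red and blue mark genes called higher and lower, grey marks neither, and diamonds mark the 5 genes. CLGN lies at the right end and RCN1 at the left end of the genes shown.

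Between the stages of testis, 42 of 83 reticulum genes with enough UMIs were higher in late spermatocyte-like than in elongating spermatid-like cells and 4 were lower, beside 28.4% and 16.9% of all features. The median log2 ratio was 1.56, against 1.18 over all features. CLGN and RCN2 were thus 2 among many. HYOU1 was 9.16-fold (6.09 to 14.5), HSPA5 6.24-fold (5.13 to 7.68) and KDELR2 3.06-fold (2.80 to 3.35) higher. TMX4 (22.2-fold), SRP54 (12.8-fold), SRPRA (5.78-fold) and SSR1 (3.38-fold) were the 4 that were lower.

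The genes most like each member were sought among 11090 features by the Pearson correlation of log2(CPM + 10) over 16 classes of the 3 libraries, which share library and depth within a tissue. CLGN was most like ZDHHC12 (r = 0.992), SH3GLB1 (0.989), CISD1 (0.987), INSL6 and CCT6B (both 0.983). RCN1 was most like ZNF185 (0.935), DAB2 (0.934), PTGDS (0.927), REM1 (0.925) and ADGRG2 (0.914), and PDIA6 most like MGST2 (0.980). RCN2 and SEC61B had weaker matches, at most 0.900 with ZNF24 and 0.903 with ATP6V1G1. Between members the correlations ran from -0.77 for CLGN and PDIA6 to 0.59 for RCN1 and PDIA6. These are descriptions over classes and not over samples.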

How the data were processed

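Gene counts per cell were analysed for 3 donkey libraries. The authors' files hold raw UMI counts without normalization. Per the file headers they were written with PISA v0.12. Cell Ranger 2.1.1 is also named, per the submitters' processing notes, with no role. Aligner and build: not given in the sources used here. Deposited barcodes began at 1816, 843 and 298 UMIs in testis, caput and corpus, and the barcode names are running numbers, so barcodes shared between libraries could not be counted. Library totals were 47686179, 13203203 and 4142512 UMIs.

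Cells with at least 200 genes were kept (8604, 9476 and 9609). Doublets were scored against 2 simulated doublets per cell, but the caller marked under 0.5% (6, 2 and 0 barcodes) and so did not work: doublets remain. Each library was clustered alone (log of counts per 10000; 2000 variable genes, 30 components and 15 nearest neighbours; Leiden resolution 1.0). RCN1 was among the variable genes of testis and CLGN among those of caput. Naming thresholds were set with the clusters in view. A name needed 3 markers at 2-fold above the median cluster, 20% of its list and a mean of 0.6 on the log2 scale. No cluster of a named class had a marker of another lineage among its 10 leading genes. Some named clusters of testis and caput still passed other marker lists, and the list with the highest mean gave the name. In testis, round spermatid-like clusters 6 and 7 also passed the elongating spermatid list, and the elongating spermatid-like cluster the round spermatid list. Summed elongating markers stood above summed round markers in cluster 6 (8125 against 5608 CPM) and in cluster 7 (12224 against 6948 CPM). In caput, the elongating spermatid-like cluster also passed the fibroblast and macrophage lists. The clear or narrow-like cluster also passed the endothelial, luminal and macrophage lists, and the macrophage-like cluster the T or NK and fibroblast lists. Testis cluster 11, led by elongating spermatid genes, was kept in the germ-like class of unnamed stage because its late spermatocyte markers were also high.

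The 5 genes and all lists were chosen with earlier results of these data known. Named genes were the 5 members, up to 3 list genes per role, direction and comparison with the largest ratio, and the 5 genes most like each member. UMIs were summed per class and given as CPM (total of 1000000); no count model or test was run. Intervals (Poisson, Clopper-Pearson, conditional binomial; 95%) hold counting error alone, and 0 UMIs is read against 3 counts. The interval rule was tested on simulated data. Alternatives were a 500-gene minimum, clustering without the reticulum genes, resolution 0.5, totals without the 50 leading features, equal weight per cell, removal of the 5% highest doublet scores and thinning. Leaving out testis cluster 11 or the elongating spermatid-like cells of caput, and adding caput cluster 2 to the luminal cells, were chosen after seeing the data. Gene symbols are those of the files, and all 5 are in the RefSeq gene table, used for names only. No genome coordinates were used. Tools were scipy 1.17.1 and numpy 2.4.6 in Python 3.11.15, with pandas 2.3.3, leidenalg 0.10.2, igraph 0.11.9, scikit-learn 1.9.0, matplotlib 3.10.9 and scikit-image 0.26.0.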

Additional observations from a re-analysis of the deposited data

Results flagged for a closer look

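PDIA6 was called in opposite directions between the regions in luminal and in macrophage-like cells. In luminal epithelial-like cells the caput level was 0.394 (0.325 to 0.482) of the corpus level (358 against 909 CPM), called lower. In macrophage-like cells the ratio of caput to corpus was 3.60 (2.13 to 6.49), called higher, with 173 against 47.9 CPM on 129 and 16 UMIs. The ratio was 1.30 (1.05 to 1.61) in fibroblast-like cells (180.3 against 139 CPM) and 1.46 (0.902 to 2.46) in T or NK-like cells (90.7 against 62.3 CPM), neither of them a call. The difference between the classes was not tested, since each class has 1 library per region.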

How the results depend on the processing

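Of 156 alternative values for the 5 genes and the reticulum counts, 136 stayed within the counting interval of the reported value or, for counts, within 1.5 times of it. Another 20 moved and 0 reversed. For testis germ-like over caput luminal cells, totals without the 50 leading features gave 41.6 for CLGN, 0.277 for RCN2, 0.0326 for PDIA6 and 0.464 for SEC61B. PDIA6 was 0.0412 with each cell weighted alike and 0.0320 after thinning, and SEC61B was 0.555 at resolution 0.5. Caput cluster 2 added to the luminal cells gave 0.373 for RCN2, 0.0433 for PDIA6 and 0.584 for SEC61B. Within caput, totals without the leading features gave 26.8 for CLGN and 0.427 for SEC61B. Cells weighted alike gave 19.2 for CLGN, 0.125 for RCN1 and 0.242 for PDIA6, and leaving out the elongating spermatid-like cells gave 40.0 for CLGN and 0.0325 for RCN1. For late spermatocyte-like over elongating spermatid-like cells, resolution 0.5 gave 2.23 for CLGN and 1.55 for SEC61B, and cells weighted alike gave 3.82 for CLGN. The cause of these moves was not tested. Counts of reticulum genes ranged from 12 to 16 higher and 41 to 45 lower in testis, and from 8 to 12 and 22 to 36 in caput. RCN1 late over elongating gave no value after thinning. No paired analysis was possible because each tissue has 1 library. Depth limits the corpus most: its luminal class rests on 1 RCN1, 3 CLGN and 12 RCN2 UMIs.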

Other observations

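TEX101, a germ cell surface protein gene, was the 1 measured gene of 8 listed as sperm surface clients of CLGN. Whether TEX101 is a client was not tested, and none of the listed ADAM genes was measured. TEX101 had 22.7 CPM in the germ-like cells of testis, on 959 UMIs, and 4 UMIs in the luminal cells of caput, a ratio of 16.3 (6.34 to 59.9). In that comparison 30.4% of 15270 features were called higher. It was 5.48-fold (2.50 to 15.0) higher in late spermatocyte-like than in elongating spermatid-like cells, where 28.4% of 8816 features were called higher. TEX101 is also among the markers that name the germ stages, so its placement is not independent of the class names.

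Luminal cells of caput had more reticulum genes called higher than lower beside the fibroblast-like cells of the same library, with 26 of 94 higher and 5 lower, against 7.62% and 10.9% of all features. The HSP70 and HSP90 system had 8 of 13 higher and 0 lower, and the translocon group 7 of 23 higher and 0 lower. In corpus the counts were 12 higher and 2 lower of 35, against 3.49% and 8.2% of 3986 features.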
